A study of Mus musculus with 14 samples.

Results

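Lrg1 encodes leucine-rich alpha-2-glycoprotein, a secreted protein built of leucine-rich repeats, and is described here in mouse lung cells sorted as SiglecF+ and CD11c+, the surface phenotype of alveolar macrophages. It was chosen from its measured values: in an earlier analysis of these data it was among the genes with the largest increases in MHCII-low cells after bleomycin, so its differences against control are given as descriptions, without a test. It is 1 gene of the 43432 in the table. The study used male 129S1 mice aged 10 to 12 weeks that received bleomycin (3 U/k) or water into the trachea, and the lung cells were sorted by flow cytometry into MHCII-low and MHCII-high fractions before bulk RNA sequencing. The 5 groups were MHCII-low cells of control mice (n = 2), MHCII-low cells 2 weeks (n = 3) and 4 weeks (n = 3) after bleomycin, and MHCII-high cells 2 weeks (n = 3) and 4 weeks (n = 3) after bleomycin. A control MHCII-high group was not analysed here, so MHCII-high cells could only be set beside control cells of the other fraction. The labels do not say whether libraries of one group came from separate animals, so p-values measure the spread between these libraries, which may be partly technical.

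LRG1 is known as an acute-phase plasma protein of the liver, and it is also made by neutrophils, which store it in granules, by endothelium and by epithelium. Its transcription is known to respond to cytokines of the interleukin-6 family through the transcription factor STAT3. The secreted protein binds endoglin (Eng), an accessory receptor of TGF-beta, and in endothelium shifts TGF-beta signalling towards the receptor Acvrl1 and the Smad1 branch. Bleomycin injures the lung epithelium and causes a fibrosis that is widely used as a model, and macrophages recruited from blood monocytes enter the SiglecF+ compartment after such injury.

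Lrg1 (ENSMUSG00000037095) lies on the reverse strand of chromosome 17, from 56119680 to 56121946 in the deposited table. The GENCODE M21 annotation of GRCm38, the same assembly as the mm10 build named in the submitters' processing notes, gives it 1 transcript with 2 exons from 56119678 to 56122001. The first exon of 141 bases holds the first 26 coding bases, and the second of 1267 bases holds the other 1000. No other annotated gene overlaps it, so its reads are not shared with a neighbour in this annotation. The 195 bases that precede the GENCODE start, from RefSeq (GRCm38.p6, chr17:56122002-56122196, reverse strand), are shown because the gene's level moved with bleomycin in these cells, and the capitals mark the letters AGGAAG, the core bound by ETS factors such as the macrophage factor PU.1.
Lrg1 upstream: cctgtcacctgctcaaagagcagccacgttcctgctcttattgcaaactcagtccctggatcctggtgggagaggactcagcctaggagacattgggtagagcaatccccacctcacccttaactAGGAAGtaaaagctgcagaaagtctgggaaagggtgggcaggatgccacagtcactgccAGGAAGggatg
That core was searched for after the sequence had been read. It occurs 2 times, both on the gene's own strand, beginning 70 and 11 bases before the start. Of 27025 RefSeq promoter windows, each cut to its first 195 bases as for Lrg1, 23% hold at least 1 copy on either strand. For the other genes such a cut need not end at the gene's start. A STAT motif (TTCNNNGAA), a C/EBP motif (TTNCNNAA), an AP-1 motif (TGANTCA) and TATAAA have no match on either strand of the stretch shown. Of all windows cut this way, 5.77%, 31.9%, 5.53% and 9.3% hold one. The whole RefSeq window of Lrg1 continues past the GENCODE start. It holds 1 TATAAA and 4 copies of AGGAAG, and no match to the STAT, C/EBP or AP-1 motif. These are letter matches in a short window and say nothing of binding.

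In control MHCII-low cells Lrg1 was low, at 35.4 and 19.8 normalized counts, which are reads divided by each library's size factor. These values rest on 91 and 23 reads, whose exact Poisson intervals of 95% span 28.5 to 43.5 and 12.6 to 29.7 normalized counts and cover counting error only. Per kilobase of exon, the control libraries placed Lrg1 at percentiles 34.1 and 28.1 of the 17390 genes tested, so it was detected in both but below most expressed genes.

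At 2 weeks after bleomycin, MHCII-low cells held 1476.7, 853.5 and 2006.4 normalized counts of Lrg1 in replicates 1, 2 and 3. All 3 libraries were above both controls, and their mean of 1446 ± 577 (SD, n = 3) was 52.4 times the control mean of 27.6 ± 11 (SD, n = 2). The log2 difference was 5.63 ± 0.43 (SE; scale log2 of normalized counts plus 1), the 7th highest of the 17390 genes tested. Groups that did not overlap and were higher at 2 weeks made up 13.7% of tested genes, and nothing is read from Lrg1 being one, because this comparison chose it. Per kilobase the gene stood at percentiles 87.1 to 94.4 in these 3 libraries. The 3 libraries differed beyond counting error: the interval of replicate 2 spans 783 to 929 normalized counts and that of replicate 3 spans 1942 to 2073.

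At 4 weeks after bleomycin, MHCII-low cells held less, at 351.6, 211.8 and 335.8 normalized counts. The mean of 299.7 ± 76.6 (SD, n = 3) was 10.9 times the control mean, and the lowest of these libraries was 5.98 times the higher control. The log2 difference from control was 3.41 ± 0.43, in which the controls are those of the 2-week comparison, and that from 2 weeks was -2.22 ± 0.38. All 3 libraries thus lay between the controls and the 2-week libraries, overlapping neither; groups higher than control without overlap made up 11.4% of tested genes, and groups lower than at 2 weeks without overlap 6.76%. Lrg1 is one of these by the choice of the gene. The percentile per kilobase was 65.2 to 73.7.

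**Figure D1:**
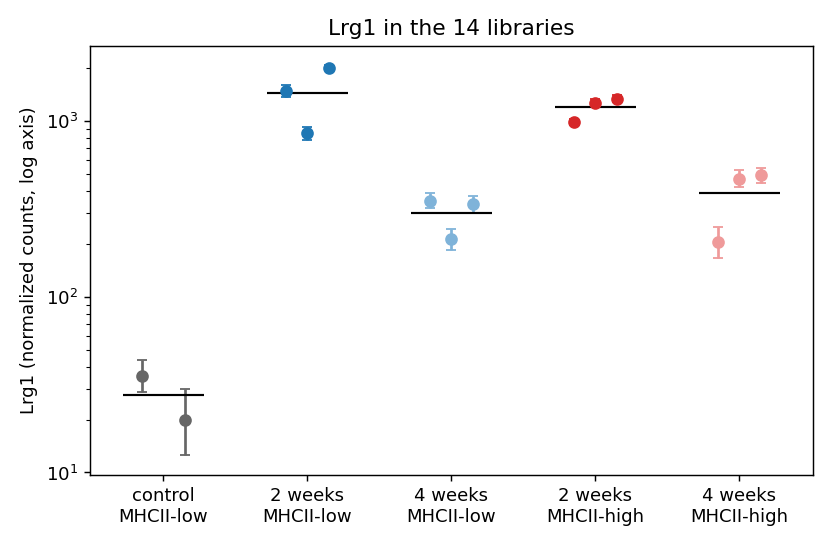
Lrg1 in normalized counts (log axis) in each of the 14 libraries, by group. Points are libraries, bars exact Poisson 95% intervals of the reads behind each and black lines group means; the 2 controls sit at 19.8 and 35.4, the 2-week libraries between 853.5 and 2006.4 and the 4-week libraries between 204 and 491.7.

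In MHCII-high cells, whose libraries took no part in choosing the gene, Lrg1 stood at 987.4, 1270.6 and 1342.3 normalized counts 2 weeks after bleomycin. At 4 weeks it was 204, 470.7 and 491.7. Every 4-week library was below every 2-week library, and the lowest 2-week value was 2.01 times the highest 4-week value. The means were 1200 ± 188 and 388.8 ± 160 (SD, n = 3 each), a ratio of 3.09.

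Lrg1 fell between 2 and 4 weeks in MHCII-high cells, by 1.72 ± 0.38 on the log2 scale (limma on all genes, Benjamini-Hochberg adjusted p = 0.03, lower in 3 of 3 libraries). A gene is said to be called where its limma adjusted p over all genes was under 0.05. By this rule 1.07% of the 17390 genes were called (186 genes, 132 of them lower), and 9.06% had 4-week libraries that were all below all 2-week libraries. An exact two-sided permutation test on Lrg1 alone gave p = 0.1, the smallest that 3 against 3 libraries allow. The call rests on few libraries: the adjusted p rose to 0.072, 0.097 and 0.11 without 2-week MHCII-high replicate 1, 2 and 3, and to 0.093 without 4-week replicate 1, where the fall was 1.31 on the log2 scale. Scaling by library totals (adjusted p = 0.076), no filter on low values (0.08) and a fit of only these 2 groups (0.053) also ended it. Only that last fit estimated the spread without the libraries that chose the gene. Replicate 1 at 4 weeks, the lowest of its group for Lrg1, was also the shallowest library of all, with 98 Lrg1 reads.

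The order of the group means was 2-week MHCII-low, 2-week MHCII-high, 4-week MHCII-high, 4-week MHCII-low and control. The 2 groups of 2-week cells overlapped, with a log2 difference, MHCII-high minus MHCII-low, of -0.20 (95% interval -0.99 to 0.60). The 2 groups of 4-week cells overlapped as well, with a difference of 0.30 (interval -0.49 to 1.10). The sign of the 2-week difference turned when MHCII-low replicate 3 was left out (0.08). The fall from 2 to 4 weeks was -2.22 in MHCII-low and -1.72 in MHCII-high cells, and the 2 changes differed by 0.50 (interval -0.62 to 1.62). Against the control MHCII-low mean, the MHCII-high means were 43.5 times higher at 2 weeks and 14.1 times higher at 4 weeks, values in which the fraction and the treatment cannot be told apart. In these bulk libraries, more cells that express Lrg1 and more Lrg1 RNA per cell cannot be told apart either.

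**Figure D2:**
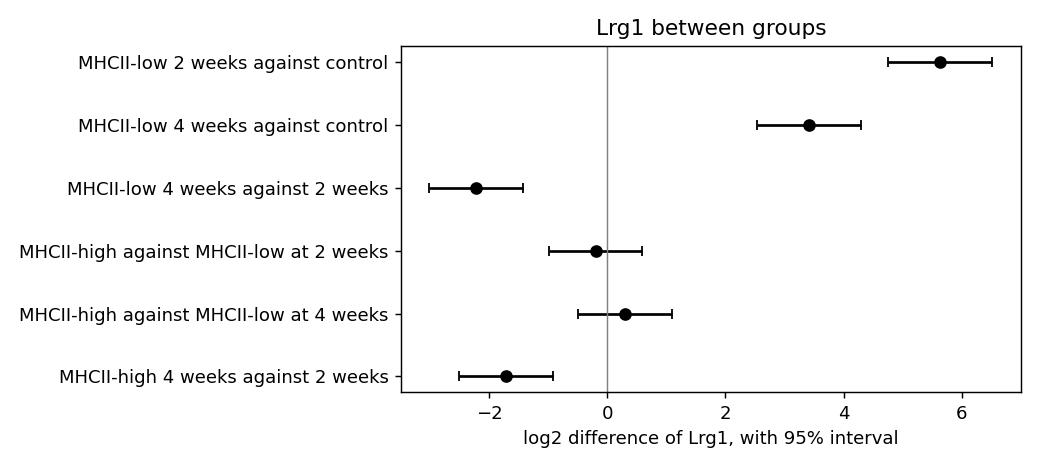
Differences of Lrg1 between groups in log2(normalized counts + 1), first group minus second, with 95% intervals from the fit over 14 libraries. The differences within MHCII-low cells describe libraries that chose the gene, so their distance from 0 is no test. The interval of the MHCII-high change from 2 to 4 weeks lies below 0, and the intervals between fractions include 0.

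Several other measures of the libraries varied beside Lrg1. Libraries held 15106415 to 88059628 reads, and mitochondrial ribosomal RNA took 3.12% to 29.0% of them; with that share as a covariate the fall in MHCII-high cells was 1.73 on the log2 scale (adjusted p = 0.048). The genes of the 2 proteins that define the sort were present in every library. Siglecf ranged from 3056 to 9551 normalized counts and Itgax (CD11c) from 25185 to 44133. Against MHCII-low cells, Siglecf was lower in MHCII-high cells by 0.95 ± 0.15 at 2 weeks and 1.02 ± 0.15 at 4 weeks on the log2 scale (limma, with adjusted p of 8.6e-04 and then 3.9e-04). Of 10 alveolar macrophage markers limma called 5 at 2 weeks and 3 at 4 weeks, all lower in MHCII-high cells, beside 2.87% and 2.5% of all genes. Siglecf, Marco and Krt79 were called at both times. Car4 and Plet1 were called at 2 weeks only, and these calls ended in 9 and 2 of 18 alternatives.

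Markers of monocyte-derived macrophages, taken as a sum, followed the time course as well. The summed level of the 8 markers was 14279 to 16826 normalized counts in controls, 26736 to 31087 and 15677 to 19494 in MHCII-low cells at 2 and 4 weeks, and 55850 to 65855 and 31490 to 39950 in MHCII-high cells. Among them Apoe, Csf1r, Itgam and C1qa were higher in 2-week MHCII-low cells than in control by the limma test, where 1.91% of all genes were called in either direction. The markers Ccr2, Ly6c2 and Cx3cr1 were not called in that comparison, and none of them had an unadjusted p under 0.05 there. Apoe, the lipid carrier apolipoprotein E, stood at 44.4 and 2.6 normalized counts in controls and 539.2, 229.3 and 1140 in 2-week MHCII-low cells (log2 difference 5.35 ± 0.76, adjusted p = 2.4e-04). The calls of C1qa and Itgam were lost without control replicate 3, and that of Csf1r without either control or without 2-week MHCII-low replicate 1 or 3; over all alternatives Csf1r lost its call in 7 of 16. The marker sum separated the fractions, being higher in every MHCII-high library than in every MHCII-low library, whereas Lrg1 overlapped between fractions at each time. The MHC class II genes did so too: their summed level was 1302 to 1680 normalized counts in controls, 4038 to 12501 and 3112 to 5944 in MHCII-low cells at 2 and 4 weeks, and 91730 to 221616 in MHCII-high cells. Within the 2-week MHCII-low group, the library with the highest class II sum (replicate 3, 12501) had the most Lrg1 and that with the lowest (replicate 2, 4038) the least. The libraries of 2-week MHCII-high cells also had the same order in both measures. Those of 4-week cells did not in either fraction, and the controls had the reverse order. The part of these cells in the Lrg1 values was not tested.

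Markers of other cell types known to make LRG1 differed widely in level. Of the hepatocyte markers, Apoa1 and Serpina1a were at 0 in all libraries and the 4 measured markers summed to at most 46.9 normalized counts. Of the 14 neutrophil markers, the granule genes Elane and Camp reached 3.6 and 7.8 normalized counts at most, and the surface gene Ly6g 22.0, with 0 in 11 of 14 libraries. The granule genes Ngp, Ltf and Mpo reached 294.3, 102 and 99.9, Retnlg 213.5 and the calgranulin S100a9 153.3; the maxima of Ngp, Retnlg and S100a9 were all in 2-week MHCII-high replicate 1. Csf3r, Cxcr2 and Mmp8 were the most abundant, at up to 6456, 4784 and 5819. The list as a whole summed to 5223 to 9424 normalized counts in controls, 14266 to 15754 and 7378 to 8439 in MHCII-low cells at 2 and 4 weeks, and 10687 to 14965 and 7046 to 10248 in MHCII-high cells. In 2-week MHCII-low cells Mmp8, a collagenase of neutrophil granules, was higher than in control by 2.24 ± 0.22 and Cxcr2, a chemokine receptor, by 2.36 ± 0.41 on the log2 scale (limma adjusted p = 1.9e-06 and 0.0019), 2 of 11 tested where 1.91% of all genes were called, while S100a8, a calgranulin, ranged from 76.3 to 396.5 normalized counts over all libraries and was not called (adjusted p = 0.48). The call of Cxcr2 was lost without control replicate 3. Of 9 endothelial markers limma called 1 higher in that comparison, beside 1.91% of all genes: Vwf (1.10 ± 0.25, adjusted p = 0.018), whose call ended in 6 of 16 alternatives, among them those without either control or without 2-week MHCII-low replicate 3. The list summed to 1913 to 2534 in controls, 3032 to 4872 and 1770 to 2873 in MHCII-low cells at 2 and 4 weeks, and 4009 to 7037 and 3480 to 4451 in MHCII-high cells. Its median log2 difference in 2-week MHCII-low cells against control was -0.30, so the median was lower though the sum was higher. The part of hepatocytes, neutrophils and endothelium in the Lrg1 values was not tested.

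Lung epithelium, lymphocytes, fibroblasts and eosinophils were checked the same way. The 10 epithelial markers summed to 10463 to 20524 normalized counts in controls, 4191 to 11944 and 21445 to 28812 in MHCII-low cells at 2 and 4 weeks, and 5743 to 14592 and 7398 to 17018 in MHCII-high cells. Scgb1a1, the secretoglobin of club cells, made up 53.2% to 90.6% of that sum in MHCII-low libraries. Without it the other 9 summed to 1481 to 1925 in controls, 1702 to 4019 and 2432 to 4100 in MHCII-low cells at 2 and 4 weeks, and 5581 to 9641 and 4065 to 10184 in MHCII-high cells, so that the times overlapped in both fractions. The surfactant gene Sftpc, 1 of these 9, stood at 169.4 and 39.6 normalized counts in controls. In MHCII-low cells it was 1763.1, 504.8 and 873.8 at 2 weeks, then 594.3, 202.9 and 247.3 at 4 weeks, so that its means there had the same order as those of Lrg1. Sftpc was higher in 2-week MHCII-low cells than in control (3.47 ± 0.59, limma adjusted p = 0.0017), though not without control replicate 3 (0.12). Of the 10 epithelial markers it was the only 1 called there, beside 1.91% of all genes. The median log2 difference of the 10 was -0.44, beside -0.09 for all genes. The 7 lymphocyte markers summed to 20.3 to 276.1 in MHCII-low and 292.8 to 947.7 in MHCII-high libraries, and the 6 fibroblast markers to 549.3 to 813.8 in 2-week MHCII-low, 119.6 to 815.9 in 2-week MHCII-high and at most 262.1 in all other libraries. The 5 eosinophil markers summed to 25.8 to 46.0 in controls, 34.1 to 69.4 and 20.3 to 71.5 in MHCII-low cells at 2 and 4 weeks, and 62.6 to 229.5 and 35.3 to 131.1 in MHCII-high cells. The granule genes Prg2 and Prg3 were at 0 in all libraries and Epx in 10 of 14 (at most 25.5), while the eotaxin receptor Ccr3 was at 17 to 197.1 in every library and the interleukin-5 receptor Il5ra reached 74.9. The part of these cells in the Lrg1 values was not tested.

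The cytokines and signal carriers upstream of LRG1 were followed in a list of 22 genes of the interleukin-6 family, of which 20 passed the filter on low values. Interleukin-6 itself was at 0 in 9 of 14 libraries and reached 22.0 normalized counts, in 1 library of 4-week MHCII-high cells. Lif, another ligand of the family, stood at 25.3 and 0 normalized counts in controls and at 337.9, 461.8 and 398.1 in 2-week MHCII-low cells. In 4-week MHCII-low cells it was 77.2, 66.7 and 4.3. Its level thus followed the same order in MHCII-low cells as that of Lrg1, and the 2-week rise passed the limma test (adjusted p = 0.0024), though not without control replicate 3 (adjusted p = 0.15).

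Socs3, a target of STAT3 that feeds back on its receptor, also had its highest group means at 2 weeks, but differed from Lrg1 at 4 weeks. It was 148.0 and 299.6 normalized counts in controls and 776.4, 1207 and 1599 in 2-week MHCII-low cells, with no overlap (log2 difference 2.44 ± 0.35, adjusted p = 2.3e-04, higher in 3 of 3 libraries). At 4 weeks the MHCII-low libraries held 263.3, 264.7 and 376.4, overlapping the controls, and that difference was not called (0.49 ± 0.35, adjusted p = 0.90). In MHCII-high cells Socs3 was 1274 to 1564 at 2 weeks and 559.9 to 938.4 at 4 weeks, a log2 difference of -1.04 ± 0.31 that did not pass (adjusted p = 0.11). At 4 weeks Socs3 was called higher in MHCII-high than in MHCII-low cells (1.22 ± 0.31, adjusted p = 0.036), a call that ended in 10 of 18 alternatives, with adjusted p up to 0.14.

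By limma, Lif and Socs3 were the only members called in 2-week MHCII-low cells against control, 2 of 20 tested and both higher, where 1.91% of all genes were called; edgeR called 2 and DESeq2 4. The list median was 0.26, beside -0.09 for all genes. Against control at 4 weeks limma called none of the 20 where 0.046% of all genes were called; 2 had an unadjusted p under 0.05, and edgeR and DESeq2 each called 0. Between the times in MHCII-high cells limma and edgeR called 0, DESeq2 4, and 5 had an unadjusted p under 0.05. Stat3 itself ranged from 9825 to 17911 normalized counts, with 9825 and 12458 in controls and 15456, 17483 and 17911 in 2-week MHCII-low cells (0.61 ± 0.17, adjusted p = 0.069). The receptor chains Il6ra and Il6st were abundant in all libraries, at 6304 to 10027 and 14861 to 26948 normalized counts, and neither was called in any of the 5 comparisons tested.

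One receptor of the family differed between the fractions. Lifr, which binds Lif, ranged from 17.2 to 221.6 normalized counts over the 8 MHCII-low libraries and from 459.6 to 1376 over the 6 MHCII-high libraries. It was higher in MHCII-high cells by 3.62 ± 0.69 at 2 weeks and 3.22 ± 0.69 at 4 weeks (limma, with adjusted p of 0.0044 and then 0.011), where 2.87% and 2.5% of all genes were called. The 2-week call ended with the mitochondrial rRNA share as a covariate (adjusted p = 0.063). The 4-week call ended without MHCII-low replicate 1 or 3, with no filter and with that covariate (adjusted p up to 0.085).

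**Figure D3:**
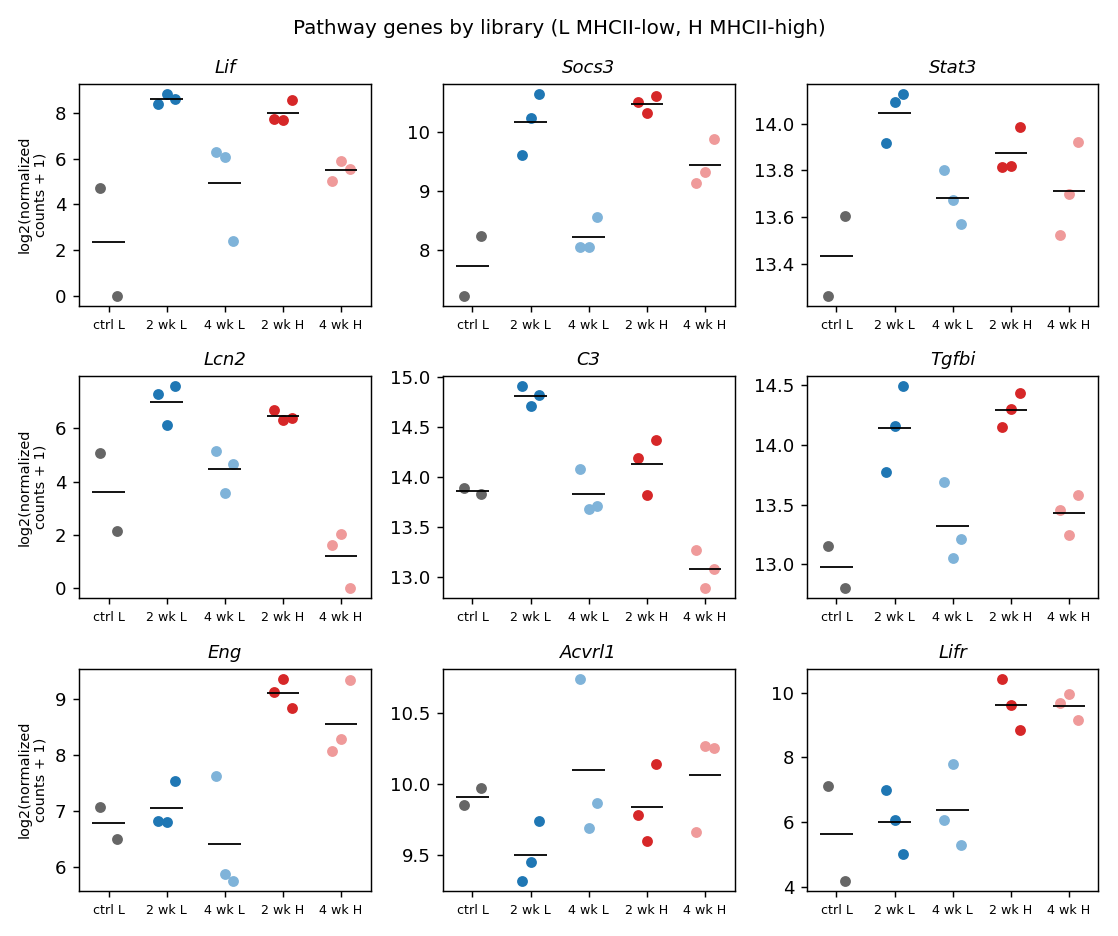
Pathway genes in log2(normalized counts + 1) per library, with black lines for the group means. Lif and Socs3 are highest in the 2-week groups of both fractions, Eng and Lifr in the MHCII-high groups; in Stat3 and Acvrl1 all group means lie less than 1 apart.

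Among other cytokines that raise acute-phase genes, 10 of 11 were tested, and limma called 1 in 2-week MHCII-low cells against control, where 1.91% of all genes were called (edgeR 1, DESeq2 3). This was Tnfrsf1b, a receptor of tumour necrosis factor, at 8878 and 9298 normalized counts in controls and 15521, 15671 and 21629 at 2 weeks (0.94 ± 0.18, adjusted p = 0.0043; adjusted p up to 0.076 without a control). Il1b, which encodes interleukin-1 beta, fell in MHCII-high cells from 1820 to 2420 at 2 weeks to 661.8 to 1146 at 4 weeks (-1.37 ± 0.30, adjusted p = 0.028), the only one of the 10 called there by limma, beside 1.07% of all genes; leaving out any one of the 2-week libraries, or 4-week replicate 1 or 2, ended the call (adjusted p up to 0.11). The interleukin-33 receptor Il1rl1 ranged from 0 to 47.8 in MHCII-low and from 153.8 to 384.4 in MHCII-high cells (3.69 ± 0.97 at 2 weeks and 6.38 ± 0.97 at 4 weeks, with adjusted p of 0.04 and then 4.4e-04), and at 2 weeks the call ended in 11 of 18 alternatives.

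The acute-phase list set Lrg1 beside proteins that the liver secretes with it. Of 23 genes, 15 passed the filter, and Saa1, Fga, Fgg, Apcs and A2m were at 0 in all 14 libraries. Per kilobase of exon, 2-week MHCII-low cells held 1070 ± 427 normalized counts of Lrg1, beside 52.4 of Lcn2 (lipocalin), 175.2 of Hp (haptoglobin), 23.4 of Saa3, 23.2 of Orm1 and 5605 of C3, the central complement component. Lrg1 was thus well above the other classical acute-phase transcripts named here and below C3 in these cells. This group helped choose the gene, and the order differed elsewhere. Per kilobase, Lrg1 was at 20.4 in control cells, below Hp (126.1) and Orm2 (290.6), another gene of the list. In 4-week MHCII-low cells Lrg1 was at 221.9, beside 293.9 and 249.3. In 2-week MHCII-high cells Lrg1 was at 888.3, above both (183.0 and 306.4). In 4-week MHCII-high cells Lrg1, at 287.8, was above Hp (83.6) and below Orm2 (566.0).

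Of the 15, limma called only C3 in 2-week MHCII-low cells against control, beside 1.91% of all genes (edgeR 1, DESeq2 3): it rose from 15134 and 14567 normalized counts to 30753, 26876 and 28858 (0.96 ± 0.18, adjusted p = 0.0054), a call lost without either control (adjusted p up to 0.096). C3 and Lcn2 both fell from 2 to 4 weeks in MHCII-high cells, 2 of 15 against 1.07% of all genes, with a list median of -1.05 beside -0.07. C3 fell from between 14479 and 21226 to between 7575 and 9859 (-1.05 ± 0.16, adjusted p = 0.0038), a call lost with library totals (0.052). Lcn2 fell from 101.4, 77.8 and 82.5 normalized counts to 2.1, 3.1 and 0 (adjusted p = 0.0091), a call lost in a fit of only these 2 groups (0.10). Lcn2 was also higher in all 2-week MHCII-low libraries (68.5 to 189.4) than in the controls (32.3 and 3.4), a difference that did not pass (adjusted p = 0.13). Between fractions C3 was lower in MHCII-high cells at both times, and Serpina3g, a serine protease inhibitor, was higher at 4 weeks; both calls of C3 and that of Serpina3g ended in some alternatives. The C/EBP factors Cebpa, Cebpb and Cebpd, which drive acute-phase genes in liver, were called in none of the 5 comparisons.

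The receptors and targets through which LRG1 is known to act were followed in 45 genes of the TGF-beta pathway, 43 of them tested. Eng, the LRG1-binding receptor, overlapped among all 3 groups of MHCII-low cells: it stood at 133.2 and 89.5 normalized counts in controls, 111.9, 111.5 and 184.5 at 2 weeks, and 196.4, 57.8 and 53.3 at 4 weeks. The 2-week difference from control was 0.27 ± 0.54 (adjusted p = 0.90). In MHCII-high cells Eng was 457 to 654.5 at 2 weeks and 266.4 to 647.5 at 4 weeks, above every MHCII-low library. It was higher than in MHCII-low cells by 2.05 ± 0.49 at 2 weeks and 2.14 ± 0.49 at 4 weeks (limma, with adjusted p of 0.022 and then 0.018), with adjusted p up to 0.12 and 0.11 when 1 library was left out; the calls ended in 7 and 5 of 18 alternatives. Per kilobase, Eng stood at 33.6 normalized counts in 2-week MHCII-low and 137.2 in 2-week MHCII-high cells. Endothelium also expresses Eng; the endothelial marker sums are given above, and their part in the Eng values was not tested.

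Acvrl1, the receptor recruited with Eng, ranged from 637.7 to 1714 normalized counts and was called in none of the 5 comparisons. The same held for Tgfb1, the main ligand (6911 to 12768), and for the receptors Tgfbr1 (24186 to 45788) and Tgfbr2 (17909 to 27671). The ligand Gdf2, which signals through Acvrl1 and Eng, was at 0 in all 14 libraries. RNA of the ligand and of its main receptors was thus present in every library.

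Of the 43, limma called 1 in 2-week MHCII-low cells against control (edgeR 1, DESeq2 3), Tgfbi, an extracellular protein induced by TGF-beta. It was 9108 and 7120 normalized counts in controls and 14015, 18241 and 23045 at 2 weeks (1.17 ± 0.21, adjusted p = 0.0032), and without control replicate 3 the call ended (adjusted p = 0.13). Tgfbi was also the 1 gene of the list called between times in MHCII-high cells, where it fell from between 18137 and 22123 to between 9702 and 12274 (-0.87 ± 0.19, adjusted p = 0.029), a call that ended in 8 of 17 alternatives. These shares of the list are near those of all genes, 1.91% and 1.07%; the list medians were 0.06 against control and -0.17 between times, beside -0.09 and -0.07 for all genes. Against control at 4 weeks limma, edgeR and DESeq2 each called 0 of 43, and 2 had an unadjusted p under 0.05. Between fractions at 4 weeks limma called 4 of 43, all higher in MHCII-high cells, where 2.5% of all genes were called (edgeR 3, DESeq2 5). They were Eng, Itgb8, an integrin chain that activates TGF-beta (a call that ended in 9 of 17 alternatives), the inhibitor Smad7 (2.40 ± 0.44, adjusted p = 0.0025) and the TGF-beta target Pmepa1 (2.23 ± 0.40, adjusted p = 0.0025). At 2 weeks limma called Eng alone, beside 2.87% of all genes, and DESeq2 called 4.

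Among 15 other extracellular proteins with leucine-rich repeats, 12 were tested and limma called 1, in 2-week MHCII-low cells against control, where 1.91% of all genes were called, and none in the other 4 comparisons. There DESeq2 called 1 at 4 weeks against control, 1 between fractions at 4 weeks and 2 between times in MHCII-high cells, beside 2 at 2 weeks against control. The gene called by limma was Cd14, the receptor for bacterial lipopolysaccharide, at 2201 and 2166 normalized counts in controls and 3513 to 4764 in 2-week MHCII-low cells (0.92 ± 0.18, adjusted p = 0.0071; up to 0.11 without a control, and lost in 4 of 16 alternatives). Its relatives in that receptor complex and family, Tlr4 and Cd180, were not called by limma.

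None of the 4 nearest protein-coding neighbours of Lrg1 on chromosome 17 was called in any of the 5 comparisons tested. Plin5 (56111601 to 56117596), which ends 2083 bases away, reached 18.6 normalized counts at most, and Plin4 (56100591 to 56109803) 59.6; both encode coat proteins of lipid droplets. On the other side, Sema6b (56123085 to 56140343), a semaphorin that ends 1138 bases from Lrg1 on the same strand, stood at 279.7 and 274.6 normalized counts in controls, 460.2 to 776.4 in 2-week MHCII-low and 243.1 to 495.7 in 4-week MHCII-low cells. Its 2-week difference was 1.10 ± 0.38 (adjusted p = 0.18). Tnfaip8l1 (56162477 to 56173955), 40530 bases away, ranged from 3.7 to 209.4.

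The genes whose levels were most like Lrg1 over the 14 libraries were ranked by Pearson correlation on log2(normalized counts + 1) among 11428 genes with a mean of at least 50. They were Cd63 (r = 0.96), Lamp1 (0.94), Slc2a1 (0.94), C4b (0.94), Rnf128 (0.94), Acp5 (0.94), Spsb1 (0.93) and Nrp2 (0.93). Cd63 and Lamp1 encode membrane proteins of late endosomes and lysosomes, Acp5 a lysosomal phosphatase, Slc2a1 the glucose transporter GLUT1, Rnf128 and Spsb1 parts of ubiquitin ligases, and Nrp2 a receptor for semaphorins and VEGF. Over all candidates the median r was 0.01, and 20 genes exceeded 0.9. These are descriptions over libraries that share their groups.

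C4b, a complement component with a near-identical copy (C4a) that may share its reads, had the widest range of the 8 on the log2 scale: 53.4 and 34.4 normalized counts in controls, 1226, 1417 and 2960 in 2-week MHCII-low cells and 218.7, 210.8 and 231.4 at 4 weeks. In MHCII-high cells it was 1377 to 2824 at 2 weeks and 196 to 604 at 4 weeks. Per kilobase of exon its group means in that order were 7.71, 328, 38.7, 327 and 68.8 normalized counts, below those of Lrg1 in all 5 groups (20.4, 1070, 222, 888 and 288). Within MHCII-low cells Cd63 moved in the same order on a smaller scale, at 472.9 and 592.3 in controls, 2594 to 4241 at 2 weeks and 1178 to 1855 at 4 weeks. Its highest group mean was in 2-week MHCII-high cells (4072, beside 3426 in 2-week MHCII-low cells), unlike that of Lrg1. Lamp1 spanned 38697 to 67698. At the other end were Anln (r = -0.88), needed for cell division, the cell-cycle kinase Cdk6 (-0.88), Ppp1r9a (-0.86) and the centriole protein Cntrl (-0.86). Anln was 3066 to 3704 normalized counts in controls and 1401 to 1588 in 2-week MHCII-low cells.

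The 8 names depend on how likeness is measured. By Spearman's rank correlation none of them was among its own 8 nearest genes, though all stayed within the first 100. In the 8 MHCII-low libraries alone 3 stayed among the first 8, and in the 6 MHCII-high libraries none did. Once each library was expressed as its deviation from its group mean, their r with Lrg1 was 0.31 to 0.83 and none was among the first 8. Without the 2 controls, r was 0.82 to 0.91.

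**Figure D4:**
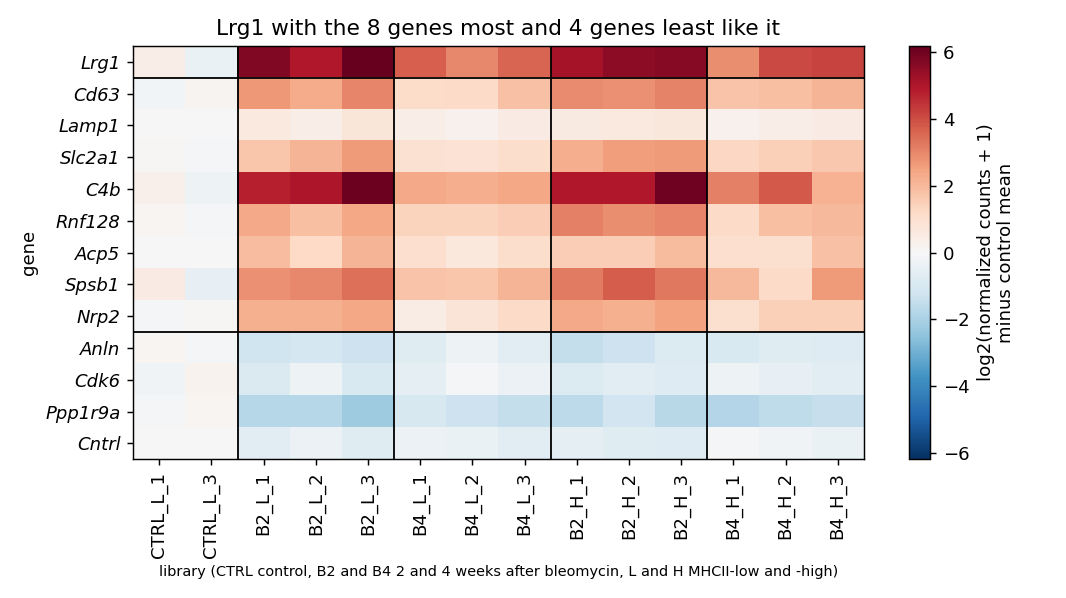
Lrg1, the 8 genes most like it and the 4 least like it, as log2(normalized counts + 1) minus the mean of the 2 control libraries, by library (columns). Red is above and blue below control; C4b is the row whose range comes nearest to that of Lrg1, and the 4 lower rows are below the control mean in all 12 bleomycin libraries.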

How the data were processed

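The deposited table gives 14 libraries and 43432 genes as normalized counts, that is read counts divided by 1 size factor per library (signal); per the submitters' processing notes, STAR, DESeq2 and mm10 were used, without versions. Libraries were made with the NuGen Ovation V2 and Nextera XT kits, per the labels' protocols, and use of strand in counting is not given in the sources used here. Whole reads were recovered from the step of each library (99.5% to 100% of values came out whole within 0.05 normalized counts). The 17390 genes that reached 10 normalized counts in 2 or more libraries were tested with limma 3.58.1 (R 4.3.3) on log2(value + 1), with a mean-variance trend, 1 coefficient per group over all 14 libraries and Benjamini-Hochberg adjustment at 0.05; a fold on this scale understates the change of low genes. edgeR 4.0.16 with TMM and DESeq2 1.42.0 on the recovered reads were alternatives. The fit was tested on simulated data. Lrg1, the 15 gene lists and the comparisons were chosen with earlier results of these data known. Only the MHCII-high comparison between times carries a test for Lrg1. Its 2 groups share no library with the comparisons that chose the gene, but its spread was estimated over all 14 libraries. A limma fit of only these 2 groups gave an adjusted p of 0.053. Named are Lrg1, 2 protein-coding neighbours on each side, the 8 genes most and 4 least like it, a fixed set of pathway genes, up to 3 called members per list and comparison with the smallest p, and the genes behind counts of 5 or fewer. The result of 1 marker gene is not reported here.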

Additional observations from a re-analysis of the deposited data

How the results depend on the processing

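Under all alternatives run the log2 difference of Lrg1 in MHCII-low cells from control was 5.22 to 6.04 at 2 weeks and 3.01 to 3.82 at 4 weeks, and the change between these times -2.55 to -1.94. The difference between fractions moved more for its size: it was -0.53 to 0.08 at 2 weeks (-0.20 as reported), where the sign turned, and 0.07 to 0.72 at 4 weeks (0.30 as reported). The fall in MHCII-high cells between times (-1.72) kept its direction in 17 of 17 alternatives and its call in 10. It lost the call with no filter (-1.72, adjusted p = 0.08), library totals (-1.57, 0.076) and only the 2 groups compared (-1.72, 0.053), and in 4 of 6 cases of 1 library left out (-1.85 to -1.31 in those 4, -1.94 to -1.31 over all 6). Under these the cause was not tested. Deviations from group means of same-numbered MHCII-high and MHCII-low libraries correlated at 0.01 to 0.11, and 4 of 6 MHCII-high libraries correlated best with their own number. These values do not settle whether the numbers are pairs, and the main fit did not take them as pairs. With a replicate block the fall was -1.72 (adjusted p = 0.037).

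The number of genes called varied more. For MHCII-low cells against control at 2 weeks it was 332, 665 with DESeq2, 213 with the mitochondrial rRNA covariate and 127 to 308 with 1 library left out. At 4 weeks it was 8, 65 with no filter, 2 with edgeR, 74 with DESeq2, 2 with the mitochondrial rRNA covariate, 16 with a replicate block and 1 to 8 with 1 library left out. Between fractions at 2 weeks it was 499, 316 with no filter, 1055 with DESeq2, 207 with the covariate and 203 to 455 with 1 library left out. Between fractions at 4 weeks it was 434, 282 with no filter, 911 with DESeq2, 214 with only the 2 groups compared and 266 to 480 with 1 library left out. Between times in MHCII-high cells it was 186, 103 with no filter, 99 with library totals, 112 with edgeR, 638 with DESeq2, 77 with only the 2 groups compared and 64 to 299 with 1 library left out. Library totals moved the median of all genes by -0.15 to 0.14 on the log2 scale and the share of higher calls between times in MHCII-high cells from 29.0% to 46.5%; with them the fall of Lrg1 was 1.57. Of 81 calls of list and neighbour genes, 41 held in every alternative and none reversed. Scaling by library totals also took the share of higher calls from 75% to 100% in MHCII-low cells at 4 weeks and from 79.8% to 68.9% between fractions at 2 weeks. The replicate block fitted within each time gave 464 genes between fractions at 2 weeks and 381 at 4 weeks, and the block over all numbers changed no direction of Lrg1. Of 425 counts of list members under an alternative, 99 moved by over 1.5 times or changed from or to 0. The 12 libraries without controls were an alternative added after seeing the data, and 0 of the 8 most like genes stayed among the first 8 there. The controls, with 91 and 23 Lrg1 reads, limit the precision of every difference from control.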
